A study of Mus musculus with 9 samples.

Results

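The nuclear-encoded subunits of the mitochondrial respiratory chain and the ATP synthase were followed in sorted basal keratinocytes of mouse plantar skin. They were taken as every row of the gene expression table whose name begins with Nduf and an a, b, c, s or v before a digit, with Uqcr, with Cox followed by a digit of 4 to 8, or with Atp5, together with the 4 Sdh genes, Cyc1 and Cycs. Names containing -ps were dropped, which removed 2 rows, Ndufb1-ps and Cox5b-ps. The rule found 86 genes among the 22399 rows: 35 of complex I, 4 of complex II, 9 of complex III, 19 of complex IV and 17 of complex V, plus Cycs and Ndufa4l2, which were kept outside the complexes. Ndufa4, named for complex I, was counted with complex IV, to which the protein belongs. All mice were wild-type (WT) C57BL/6. The aged group was 24 months old, the HFD group was fed a high fat diet and was 5 months old, and the control group was fed a normal diet and was 5 months old. Each group had 3 libraries. CD49f positive, CD34 negative cells were sorted, and mRNA was sequenced with a stranded kit. The labels do not say that the 3 libraries of a group came from separate animals, so a p-value here measures how far these libraries spread, which could be technical variation. The diet of the aged mice is not named in the labels.

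The respiratory chain passes electrons from NADH (complex I) and succinate (complex II) through ubiquinone, complex III, cytochrome c and complex IV to oxygen. Complexes I, III and IV pump protons across the inner mitochondrial membrane, and complex V, the ATP synthase, lets them flow back through a rotating ring to make ATP. Most subunits are encoded in the nucleus and imported, while a small core is encoded in mitochondrial DNA. Basal keratinocytes, which renew the epidermis, are known to use both glycolysis and respiration.

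Levels are FPKM, fragments per kilobase of gene model scaled to the size of the library, as the authors deposited them. Low values fell on whole reads, which gave an estimated 23.5 to 35.8 M reads per library. Basal keratinocyte markers were strong, with a summed level of 23768 to 24870 FPKM over 8 genes in aged, 26997 to 31662 in HFD and 23863 to 30606 in control libraries. Of 12 skeletal muscle markers only Mylpf passed 1 FPKM on average, their summed level was 3.53 to 5.59 FPKM in aged, 3.83 to 4.67 in HFD and 3.31 to 6.24 in control libraries, and Myh4 and Myh7 were listed at 0 throughout. The 5 endothelial markers summed to at most 0.336 FPKM in any library. Some low or related lists moved with the groups. Over 7 differentiating keratinocyte markers the sum was 6549 to 9011 FPKM in aged, 5002 to 6971 in HFD and 4601 to 6073 in control libraries. Over 6 sweat gland markers it was 22.9 to 23.0 FPKM in aged, 23.4 to 25.3 in HFD and 17.7 to 20.1 in control libraries. Most of that sum was Slc12a2, at 16.5 to 24.9 FPKM. Foxa1 and Foxi1 were listed at 0, and Aqp5, Krt7 and Krt19 stayed at or below 1.54, 0.89 and 0.268 FPKM. Over 6 fibroblast markers the sum was 3.48 to 4.45 FPKM in aged, 1.5 to 2.55 in HFD and 4.51 to 6.64 in control libraries. Most of it was Dcn, at 1.41 to 6.47 FPKM, while Col1a1 stayed at or below 0.176 FPKM and Lum was listed at 0. Each of these 2 sums thus mostly follows 1 gene, and whether it measures sweat gland or fibroblast content was not tested. Slc12a2 was called higher with HFD (log2 fold change 0.45 ± 0.07, limma adjusted p = 0.00236) and with age (0.31 ± 0.07, 0.0197). Dcn was called lower with HFD (-1.04 ± 0.16, 0.00239) and higher in aged than in HFD libraries (0.67 ± 0.16, 0.0248). Of 6 fat markers, whose sum was 2.14 to 4.0 FPKM in aged, 0.331 to 0.489 in HFD and 0.316 to 2.23 in control libraries, Cidea alone was tested and was higher in aged than in HFD libraries (log2 fold change 1.5 ± 0.27, limma adjusted p = 0.00783). The part of these cells in the results was not tested.

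Most subunits were among the abundant transcripts of these cells. Of the 86 genes, 80 averaged 1 FPKM or more across all libraries and were tested. These 80 had a median level of 62.9 FPKM, against 9.15 FPKM over all 10367 genes that passed the same limit. The member median lay above 93.6% of those genes. By complex, the median level was 47.7 FPKM for complex I (35 genes), 48.8 for complex II (4), 118 for complex III (9), 108 for complex IV (13) and 64.0 for complex V (17).

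**Figure D1:**
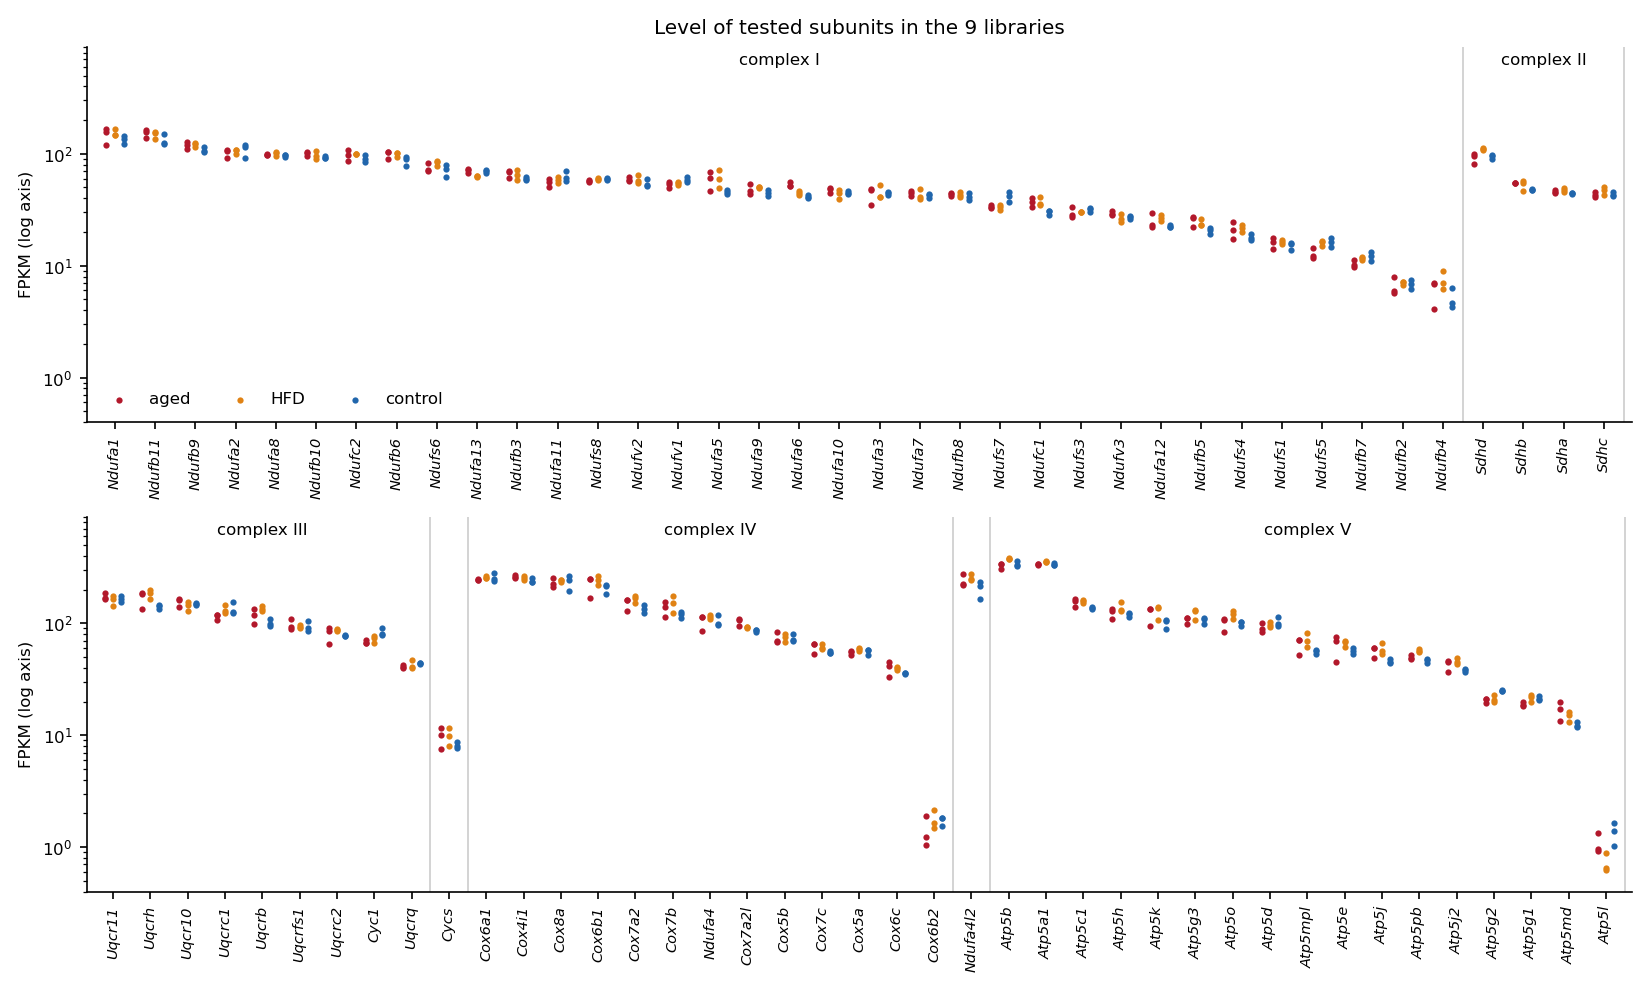
FPKM (log axis) of the tested subunits, all but 1 of them shown, ordered within each complex by mean level, with 1 point per library and the aged, HFD and control groups side by side. Cycs and Ndufa4l2 stand between the complexes, 71 of the 80 tested genes average at least 20 FPKM, and Cox6b2 and Atp5l lie near the limit of 1 FPKM.

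The highest levels belonged to the catalytic head of the ATP synthase. Atp5b, the catalytic beta subunit, averaged 347 FPKM over the 9 libraries, and Atp5a1, the alpha subunit, averaged 344 FPKM. Within complex IV, Cox6a1 and Cox4i1, both structural subunits around the mitochondrial core, averaged 253 and 252 FPKM. In complex III the highest were Uqcr11 at 166 FPKM and Uqcrh, the hinge subunit that docks cytochrome c1, at 164 FPKM. In complex I they were Ndufa1 at 145 FPKM and Ndufb11 at 144 FPKM, both small membrane-arm accessory subunits. In complex II they were Sdhd, a membrane anchor, at 98.7 FPKM and Sdhb, the iron-sulfur subunit, at 51.8 FPKM. The lowest tested subunit was Ndufb4 at 6.15 FPKM in complex I, Sdhc at 44.5 in complex II, Uqcrq at 42.4 in complex III, Cox6b2 at 1.63 in complex IV and Atp5l at 1.05 in complex V. Cytochrome c itself (Cycs), the mobile carrier between complexes III and IV, averaged 9.19 FPKM.

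Part of this order depends on the length by which reads were divided. The deposited values fit the merged length of all annotated exons, which was at the median 1.44 times the length of the main transcript and at least 3 times it for 13 members. Divided by the main transcript instead, the medians were 83.0 for complex I, 82.0 for complex II, 193 for complex III, 185 for complex IV and 193 for complex V. The highest member then became Ndufb8 (198) in complex I, Sdhb (102) in II, Uqcrh (372) in III and Cox4i1 (511) in IV. Atp5b stayed the highest of complex V (768), and Ndufb2 became the lowest of complex I (8.75). Atp5l, subunit g of the ATP synthase membrane part, had a merged model 11.84 times as long as its main transcript, and 68.5% of the 50-base stretches of that transcript occurred in other genes. Among subunits that other genes copy in part, the share was 87.4% for Atp5g2, 53.0% for Cox7c, 47.9% for Atp5h and 43.2% for Uqcrb. In all, 21 members shared over 10% of their main transcript, and 10 had over 10% of their exons overlapped by exons on the other strand. Their levels are uncertain, because how such reads were counted is not stated.

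For the complex IV subunits with a tissue-restricted isoform, the widely expressed isoform had the higher listed level. Cox4i1 was at 233 to 269 FPKM, while Cox4i2, the isoform known from lung, was at most 0.124 FPKM, which is 3 reads. Cox6a1 was at 240 to 279 FPKM and Cox8a at 193 to 264 FPKM, while Cox6a2 and Cox8b, both known from heart and skeletal muscle, were listed at 0 in every library. A listed 0 may be a failed estimate in this file, since 4 mitochondrially encoded subunits, which every cell uses, are also listed at 0. Cox7a2 was at 123 to 174 FPKM, while the muscle isoform Cox7a1 was at most 0.775 FPKM, or 11 reads. Of the testis-type isoforms, Cox6b2 averaged 1.63 FPKM beside 224 FPKM for Cox6b1, and Cox7b2 and Cox8c were listed at 0. These 6 untested genes, Cox4i2, Cox6a2, Cox7a1, Cox7b2, Cox8b and Cox8c, all belong to complex IV. Just inside the limit of 1 FPKM stood Atp5l and Cox6b2, and just outside it Cox7a1 at a mean of 0.313 FPKM and Cox4i2 at 0.0225 FPKM.

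Ndufa4l2, a paralog of Ndufa4 known as a hypoxia-induced gene and from vascular mural cells, was among the highest members. It had 275, 221 and 223 FPKM in aged, 251, 244 and 274 FPKM in HFD and 166, 215 and 236 FPKM in control libraries. Ndufa4 itself ranged from 85.0 to 119 FPKM, below Ndufa4l2 in every library. Ndufa4l2 was higher in all 3 HFD libraries than in any control library, but its log2 fold change of 0.33 (95% interval 0.05 to 0.61) was not called (limma, adjusted p = 0.0905). With GC correction it was 0.55 and called (0.0198). Among 8 mural markers, Pdgfrb, Kcnj8, Abcc9 and Higd1b were listed at 0, Rgs5 and Myh11 stayed at or below 0.00677 and 0.0445 FPKM, and Cspg4 and Notch3 averaged 17.6 and 9.60 FPKM. The summed level of the list was 20.4 to 27.2 FPKM in aged, 26.5 to 35.0 in HFD and 21.7 to 30.9 in control libraries, and its part in the level of Ndufa4l2 was not tested. The 3 genes of subunit c, which forms the rotor ring of the ATP synthase, were led by Atp5g3 at a mean of 112 FPKM, with Atp5g2 at 22.2 and Atp5g1 at 20.7 FPKM.

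With diet, few subunits changed, and the changes were small. In HFD against control libraries, 4 of the 80 tested members rose and 2 fell (limma on log2(FPKM + 1), Benjamini-Hochberg adjusted p under 0.05 over 10367 genes). The falls include Atp5l, which passed the filter only through the groups other than HFD. Over all genes tested, 8.26% rose and 8.76% fell, so the members' 5.0% and 2.5% lie below that background. At an unadjusted p under 0.05 there were 26 members (32.5%) and 3525 genes (34.0%). The median log2 fold change of the members was 0.11, against 0.01 over all genes, and 61 of 80 were above 0, against 5343 of 10367. Scaling each library to its total FPKM, or quantile normalization, brought the members' median to 0.06. The calls split into 2 rising and 5 falling with total FPKM, 2 and 4 with quantile normalization, 2 and 1 with GC correction, 10 and 3 with replicate number as a block, and 13 and 1 with only the 6 libraries compared. Over all genes 5.77% rose and 11.2% fell with total FPKM, 8.01% and 8.79% with quantile normalization, and 5.85% and 5.35% with GC correction. When 1 library was left out, the number called was 0 to 18, the highest without aged replicate 3, and 0 without control replicate 2 or HFD replicate 2. Over all genes 3.71% rose and 3.51% fell without control replicate 2, and 10.0% and 10.3% without aged replicate 3. Shares over all genes for the block, 6-library and other fits are not given here. The 95% interval of the log2 fold change lay within 0.5 of 0 for 63 of the 80 members. Since these are bulk samples, fewer cells of a type and less RNA per cell cannot be told apart.

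Among the complexes, the median was highest in complex V and lowest in complex III. The median log2 fold change of HFD against control was 0.06 in complex I, 0.12 in complex II, -0.03 in complex III, 0.11 in complex IV and 0.20 in complex V. In complex V 14 of 17 members were above 0, in complex IV all 13 tested, and in complex III 4 of 9. In complex IV it was 10 of 13 with GC correction or total FPKM and 9 of 13 with quantile normalization, where the median was 0.04, and in complex III 7 of 9 with GC correction. The median of complex I was 0.01 scaled to total FPKM. The value of complex V was 0.15 scaled to total FPKM, 0.11 after quantile normalization and 0.18 after a correction for GC content. That of complex III turned to 0.04 with the GC correction. Members of a complex are not replicates, so no test was made between complexes.

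**Figure D2:**
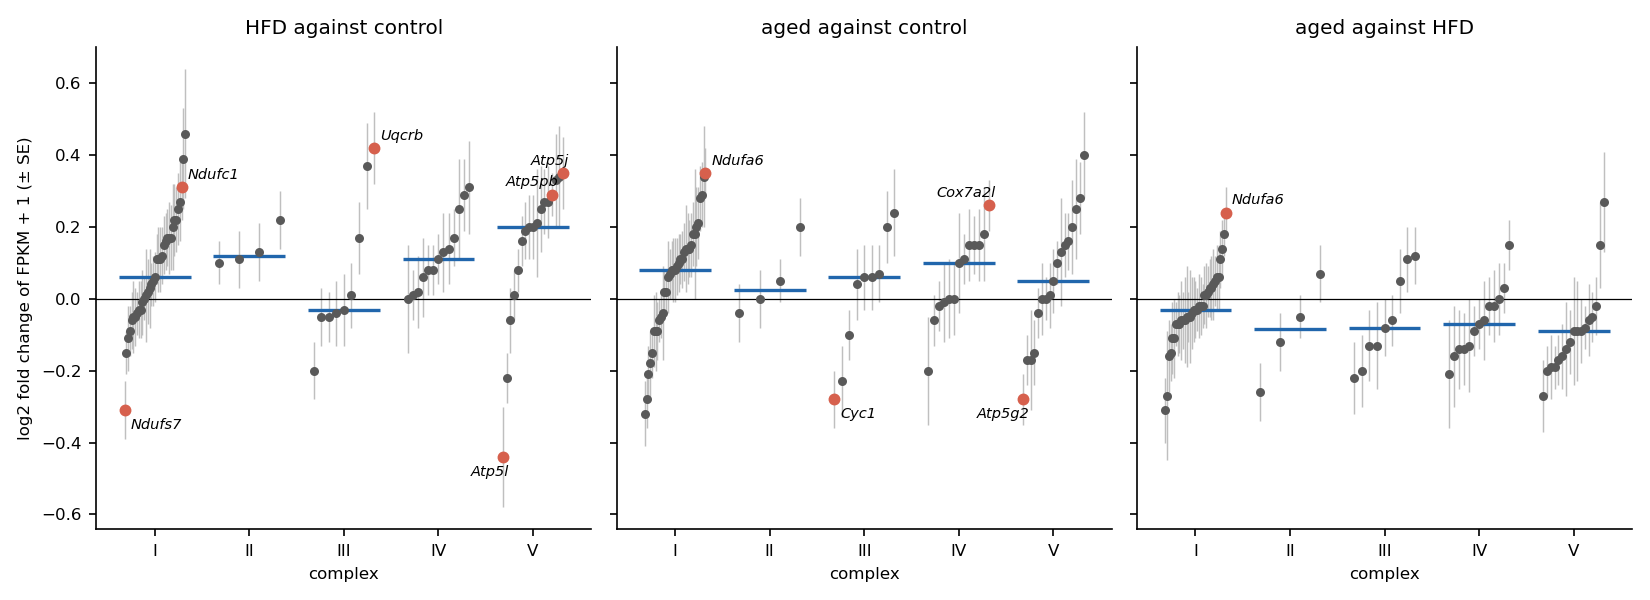
Log2 fold change of FPKM + 1 (± SE of limma) of each tested subunit of the 5 complexes in the 3 comparisons. Blue bars mark medians, and named red points were called at an adjusted p under 0.05. In HFD against control the median is highest in complex V at 0.20, and in aged against HFD all 5 medians lie below 0.

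Each subunit's deviation from its mean over the 9 libraries was taken on the log2 scale, and the median over complex V was 0.14, 0.11 and 0.02 in HFD replicates 1 to 3, against -0.05, -0.12 and -0.08 in control replicates 1 to 3. The HFD and control libraries did not overlap in complexes I, II, IV and V, and did overlap in complex III. The gap was narrow in complex I (lowest HFD 0.00, highest control -0.01) and complex IV (-0.01 and -0.02). As a share of total FPKM these 2 complexes overlapped. Complex I had 0.631% to 0.675% in HFD and 0.621% to 0.643% in control libraries, and complex IV 0.539% to 0.575% and 0.502% to 0.544%. Such separation was not counted over all genes. Summed over all members, the level was 7196, 7102 and 6406 FPKM in aged, 7384, 7269 and 6989 FPKM in HFD and 6567, 6325 and 6889 FPKM in control libraries. Aged replicate 3 stood apart: its median over all members was -0.10, while aged replicates 1 and 2 were each at 0.07. It was the lowest of the 9 libraries in complexes III, IV and V, and shared the lowest value in complex I with a control library. Its estimated depth was within the range of the other libraries.

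**Figure D3:**
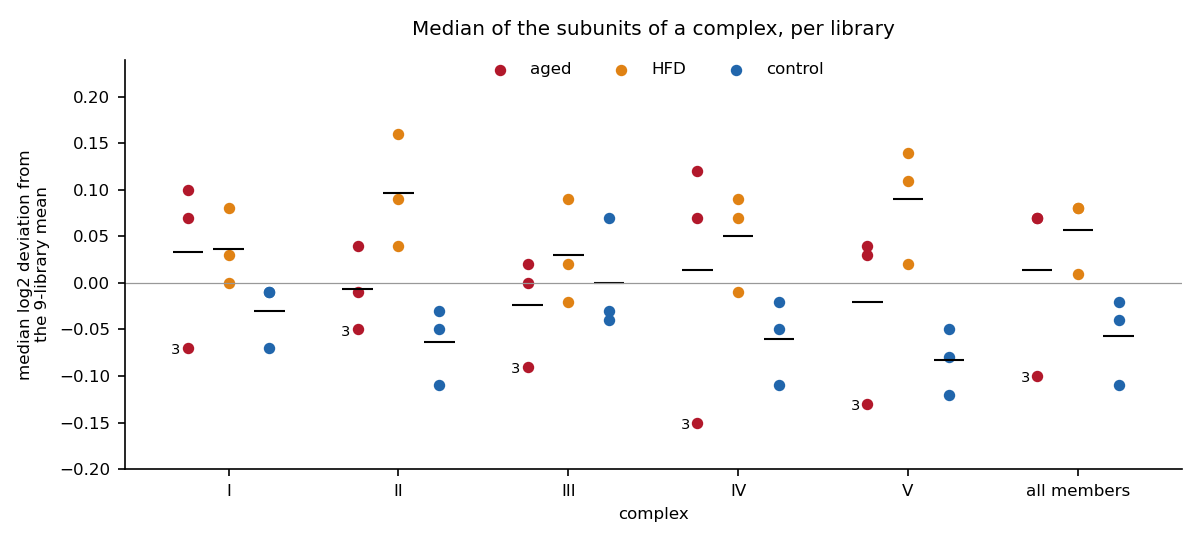
Median log2 deviation of the subunits of each complex from their 9-library mean, 1 point per library, with the group mean as a black bar and aged replicate 3 marked. The HFD points of complex V, 0.02 to 0.14, lie above all control points, -0.12 to -0.05, while aged replicate 3 lies at -0.13, below both other aged libraries.

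The 4 subunits that rose with HFD came from complexes I, III and V. Atp5pb, subunit b of the peripheral stalk that holds the catalytic head in place, had 55.9, 58.4 and 56.3 FPKM in HFD against 47.5, 44.2 and 47.1 FPKM in control libraries. All HFD libraries were above all control libraries, and aged libraries lay between them at 52.0, 49.1 and 48 FPKM. The log2 fold change was 0.29 ± 0.06 (SE, limma adjusted p = 0.0126). It was not called without control replicate 2 (0.0551) or HFD replicate 2 (0.0548), nor after GC correction (log2 fold change 0.11, adjusted p = 0.26). Atp5j, the coupling factor of the same stalk, had 66.8, 56.6 and 53.5 FPKM in HFD and 48.3, 44.3 and 45.4 FPKM in control libraries. The groups did not overlap, HFD replicate 1 being the highest of all 9 libraries. Its log2 fold change was 0.35 ± 0.10 (limma adjusted p = 0.0395), and it kept a value of 0.34 with GC correction (0.0427). Leaving out any control library, HFD replicate 1 or HFD replicate 2 ended the call (adjusted p from 0.0582 to 0.14), as did scaling to total FPKM (0.0524), quantile normalization (0.0622) and using no filter on low values (0.0841). Exons of Gabpa on the other strand overlap 12.7% of its exons.

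Uqcrb, a small complex III subunit at the ubiquinone binding region, had 142, 133 and 130 FPKM in HFD against 109, 94.6 and 99.4 FPKM in control libraries. The lowest HFD library was above the highest control library, and aged libraries spread across both at 118, 134 and 97.7 FPKM. The log2 fold change of Uqcrb was 0.42 ± 0.10 (limma adjusted p = 0.0215), and 0.28 with GC correction (0.0678). The call was lost without control replicate 2 (0.0796), control replicate 3 (0.0555), HFD replicate 1 (0.073) or HFD replicate 2 (0.0562), and with no filter on low values (0.0566). Ndufc1, an accessory subunit of the complex I membrane arm, had 41.5, 35.2 and 35.7 FPKM in HFD and 30.7, 30.8 and 28.2 FPKM in control libraries, again without overlap. Its log2 fold change was 0.31 ± 0.09 (limma adjusted p = 0.0357). It was not called without any 1 of the 6 HFD and control libraries (adjusted p from 0.0572 to 0.129), scaled to total FPKM (0.0605), after quantile normalization (0.0563) or GC correction (0.0977), or with no filter on low values (0.0676).

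Ndufs7 and Atp5l fell with HFD. Ndufs7, the core complex I subunit whose iron-sulfur cluster hands electrons to ubiquinone, had 34.8, 33.3 and 31.2 FPKM in HFD against 36.8, 45.3 and 41.8 FPKM in control libraries. Every HFD library was below every control library, with a log2 fold change of -0.31 ± 0.08 (limma adjusted p = 0.0274). With GC correction it was -0.11 (0.429), with no filter on low values the adjusted p was 0.050, and the adjusted p was 0.0706 to 0.104 when control replicate 2, control replicate 3, HFD replicate 2 or HFD replicate 3 was left out. In aged libraries Ndufs7 had 33.0, 35.1 and 33.1 FPKM, also below all controls, with a log2 fold change of -0.28 that was not called (0.0614). Atp5l had 0.887, 0.653 and 0.625 FPKM in HFD and 1.63, 1.38 and 1.02 FPKM in control libraries. Its HFD mean of 0.722 FPKM was under the limit of 1 FPKM. It passed the filter only through the control (1.35) and aged (1.08) libraries, so its fall is not independent of the filter. Its log2 fold change was -0.44 ± 0.14 (limma adjusted p = 0.0482) on 104 to 342 reads, and -0.81 with a pseudocount of 0.1 in place of 1 (0.0489). The call was lost with no filter on low values (0.0626), with only the 6 libraries compared (0.0518), and without control replicate 1 (0.134), control replicate 2 (0.126), HFD replicate 1 (0.0669), HFD replicate 2 (0.127), HFD replicate 3 (0.124) or aged replicate 1 (0.0523).

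Larger changes than some of these were not called. Ndufb4, a complex I accessory subunit, had 8.92, 7.01 and 6.16 FPKM in HFD and 6.31, 4.29 and 4.66 FPKM in control libraries, a log2 fold change of 0.46 ± 0.18 (limma adjusted p = 0.102). The groups overlapped. Ndufa5, an accessory subunit of the peripheral arm, had 72.2, 59.4 and 49.9 FPKM in HFD and 46.0, 47.0 and 43.6 FPKM in control libraries (0.39 ± 0.14, adjusted p = 0.0864), without overlap. Uqcrh had a log2 fold change of 0.37 ± 0.12 (0.0523) and Atp5g2 of -0.22 ± 0.07 (0.052), and the value of Atp5g2 turned to 0.06 with GC correction.

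**Figure D4:**
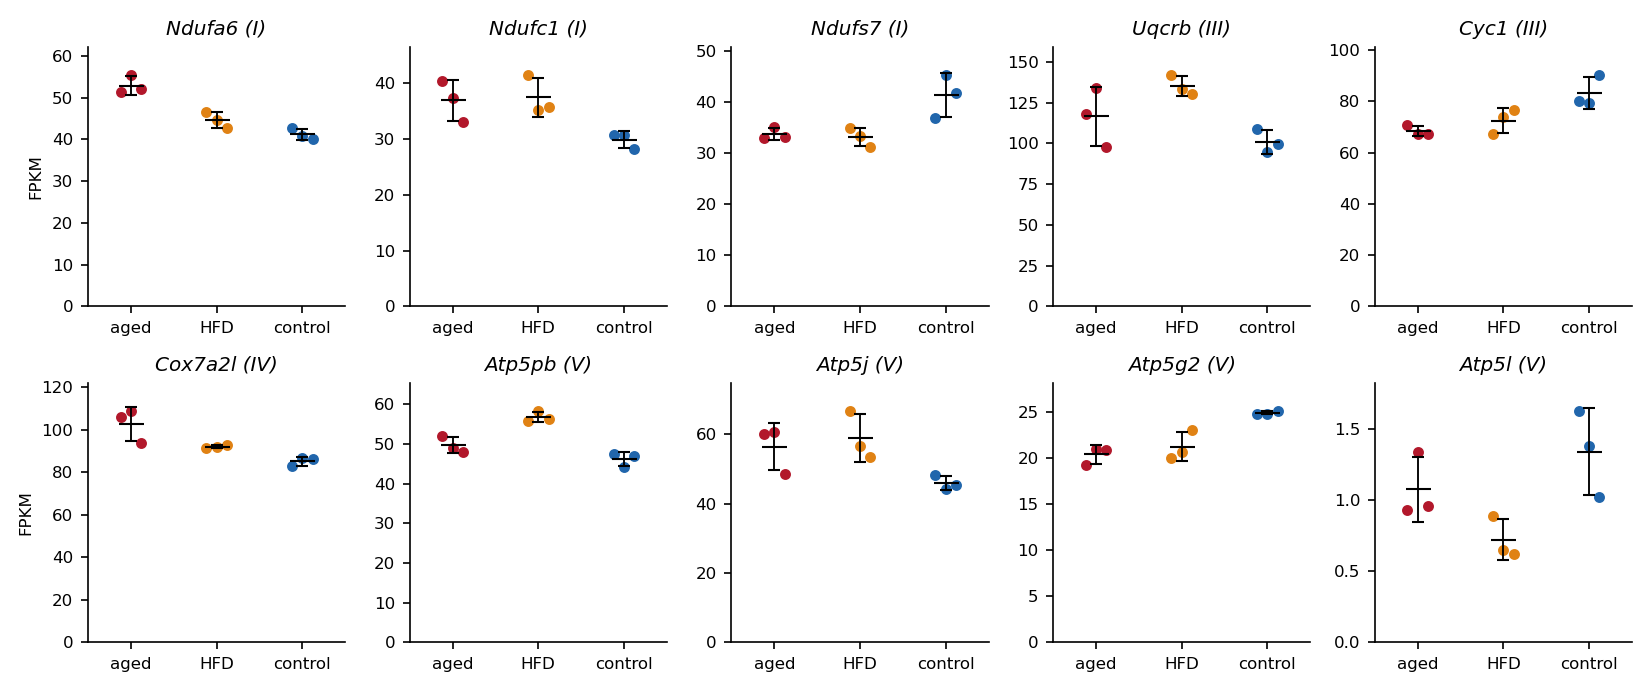
FPKM of the 10 subunits called in any comparison, 1 point per library, with mean and SD (n = 3) in black and the complex in brackets. Aged Ndufa6 libraries, 51.3 to 55.5 FPKM, lie above all others, whereas HFD libraries of Atp5pb, 55.9 to 58.4 FPKM, lie above both other groups.

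With age, 2 members rose and 2 fell against control. This is 2.5% in each direction, beside 4.01% rising and 3.74% falling among all genes tested. An unadjusted p under 0.05 was found for 15 members (18.8%) and 2674 genes (25.8%). The members' median log2 fold change was 0.07, against -0.01 over all genes, with 54 of 80 above 0, and it was 0.13 without aged replicate 3. Scaled to total FPKM 2 rose and 4 fell, 2 rose and 1 fell with quantile normalization or GC correction, 5 rose and 4 fell with replicate number as a block, and 1 rose and 0 fell with only the 6 libraries compared. Over all genes 3.45% rose and 4.89% fell with total FPKM, 3.91% and 3.84% with quantile normalization, and 4.01% and 3.45% with GC correction. When 1 library was left out, 1 to 17 members were called, with 17 without aged replicate 3. Over all genes 1.84% rose and 1.24% fell without control replicate 2, and 5.71% and 6.39% without aged replicate 3. By complex the medians were 0.08, 0.02, 0.06, 0.10 and 0.05 for complexes I to V, and those of III and V became -0.01 and -0.02 after quantile normalization, and that of II -0.01 scaled to total FPKM.

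Ndufa6 was the member whose rise with age was called under every alternative tried. It is an accessory complex I subunit of the LYR family that binds the mitochondrial acyl carrier protein. It had 51.3, 55.5 and 52.0 FPKM in aged, 46.6, 44.6 and 42.7 FPKM in HFD and 42.7, 40.9 and 40.2 FPKM in control libraries. All aged libraries were above all HFD and all control libraries, while HFD and control met at their edge. The log2 fold change of aged against control was 0.35 ± 0.07 (95% interval 0.21 to 0.50, limma adjusted p = 0.0111), on 1775 to 3178 reads per library. Over 18 alternatives it ranged from 0.32 to 0.38 and the adjusted p from 0.00639 to 0.045. No 50-base stretch of its main transcript was found in another gene, and no exon overlapped another gene's. The gene lies at chr15:82350140-82354322 on the minus strand of GRCm38.

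Cox7a2l, counted with complex IV and sharing 19.8% of the 50-base stretches of its main transcript with Gm6969, also rose with age. It had 106, 109 and 93.8 FPKM in aged against 82.8, 86.7 and 86.4 FPKM in control libraries, with no overlap and with HFD libraries in between at 91.6 to 92.7 FPKM. Its log2 fold change was 0.26 ± 0.07 (limma adjusted p = 0.0417). The call held without aged replicate 3 (0.0112) and was lost without any 1 of the other 8 libraries (0.059 to 0.135) and with only the 6 libraries compared (0.0965). Cyc1, the heme-bearing cytochrome c1 of complex III, fell to 70.7, 67.3 and 67.3 FPKM in aged libraries, against 80.2, 79.2 and 90.4 FPKM in control libraries. Every aged library was below every control, with a log2 fold change of -0.28 ± 0.08 (limma adjusted p = 0.0467). It was -0.16 with GC correction (0.236), and the call held without HFD replicate 1 but not without any other library (0.0573 to 0.144), with no filter on low values (0.0643) or with only the 6 libraries compared (0.0802). Atp5g2 fell to 19.2, 21 and 20.9 FPKM in aged libraries, against 24.8, 24.8 and 25.1 FPKM in control libraries, a log2 fold change of -0.28 ± 0.07 (limma adjusted p = 0.0381). With GC correction it was -0.15 (0.29). It was not called without any 1 control library, aged replicate 1 or 2 or HFD replicate 2 (0.06 to 0.127), after quantile normalization (0.0508) or with only the 6 libraries compared (0.0634).

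Several changes with age of like size were not called. Atp5md, a small subunit linked to synthase dimers, had 17.0, 19.9 and 13.3 FPKM in aged and 13.0, 12 and 11.9 FPKM in control libraries. The groups did not overlap, and the log2 fold change was 0.40 ± 0.12 (limma adjusted p = 0.0732). Ndufs5, an accessory subunit of complex I, had 11.7, 14.3 and 12.2 FPKM in aged against 14.7, 17.5 and 16.2 FPKM in control libraries (-0.32 ± 0.09, adjusted p = 0.0571). Its highest aged library lay just under its lowest control library. Ndufa5 had a log2 fold change of 0.34 ± 0.14 (0.166), with aged replicate 3, at 46.4 FPKM, inside the control range. Ndufc1 had 0.29 ± 0.09 (0.0703), without overlap between aged and control libraries.

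The number called depended on single libraries. Without aged replicate 3, 16 members rose and 1 fell in aged against control, which is 20% and 1.25%, beside 5.71% and 6.39% of all genes. In HFD against control, which does not contain that library but shares its estimate of spread, 15 members rose and 3 fell, 18.8% and 3.75%, beside 10.0% and 10.3% of all genes. Complex V held 6 of the 16 rises with age and 7 of the 15 with HFD. Atp5md had a log2 fold change of 0.54 with age in that fit (limma adjusted p = 0.0107), Ndufa5 of 0.50 (0.0314), Atp5k, subunit e, of 0.42 (0.0394), and Uqcrh of 0.39 (0.0173). With HFD, Uqcrh had 0.37 (0.00852), the peripheral stalk subunit Atp5o 0.27 (0.0255), Sdhd 0.22 (0.0294) and Cox7a2 0.29 (0.0254). Aged replicate 3 was the lowest aged library for each gene named here. Leaving it out therefore raised their aged means and narrowed the spread. This fit was picked out for its high number of calls, so its adjusted p-values are not independent support. Of the other libraries, leaving out control replicates 1, 2 or 3 or HFD replicates 1 or 2 gave 3, 0, 2, 2 and 0 called members in HFD against control, where the fits with 0 had 13 and 17 at an unadjusted p under 0.05. In aged against control, leaving out control replicate 2 or 3, HFD replicate 2 or 3, or aged replicate 1 or 2 gave 1, 1, 1, 2, 1 and 2. Without control replicate 2, calls over all genes also dropped, to 3.71% rising and 3.51% falling with HFD and 1.84% and 1.24% with age.

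Aged against HFD gave the fewest calls. Ndufa6 alone rose in aged against HFD, with a log2 fold change of 0.24 ± 0.07 (limma adjusted p = 0.0469), and 0 members fell, with 6 below 0 at an unadjusted p under 0.05. This is 1.25% rising, beside 3.54% rising and 4.45% falling among all genes. The call on Ndufa6 was lost without any 1 of the 9 libraries, with an adjusted p of 0.0544 to 0.162, and with only the 6 libraries compared (0.0736) or GC correction (0.0703). The members' median was -0.06, and 58 of 80 were below 0. Without aged replicate 3 the median was 0.00, with 40 of 80 above 0. The medians of complexes I to V were -0.03, -0.09, -0.08, -0.07 and -0.09, and that of complex I turned to 0.02 after quantile normalization. Of members not called, Ndufs5 had a log2 fold change of -0.31 ± 0.09 (0.0638), Atp5o of -0.27 ± 0.10 (0.135), Ndufb4 of -0.27 ± 0.18 (0.393), Atp5l of 0.27 ± 0.14 (0.26) and Ndufa13, an accessory complex I subunit, of 0.18 ± 0.06 (0.111).

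The redox and catalytic core included Ndufs1, Ndufs7, Ndufs8, Ndufv1, Ndufv2, the 4 Sdh genes, Uqcrfs1, Uqcrc1, Uqcrc2, Cyc1, Cycs, Atp5a1, Atp5b and Atp5c1. Of these 17 genes, 1 fell with HFD (Ndufs7) and 1 with age (Cyc1), beside 8.76% and 3.74% of all genes falling. None rose, beside 8.26% and 4.01% of all genes. At an unadjusted p under 0.05 limma had Sdhd and Atp5c1 above 0 with HFD and Sdhb with age. Besides the called falls, it had Cyc1 (log2 fold change -0.20) below 0 with HFD, and Uqcrc1 (-0.23) and Ndufs7 (-0.28) with age. Atp5b had 339, 342 and 303 FPKM in aged, 380, 377 and 372 FPKM in HFD and 329, 328 and 357 FPKM in control libraries. HFD libraries were above all others, yet the log2 fold change of 0.16 ± 0.07 against control was not called (limma adjusted p = 0.151). For Atp5a1, HFD libraries at 353 to 363 FPKM were likewise above control libraries at 330 to 347 FPKM (0.08 ± 0.06, adjusted p = 0.365). Sdhd had 100, 94.6 and 80.5 FPKM in aged, 111, 112 and 107 FPKM in HFD and 96.0, 89.4 and 97.5 FPKM in control libraries. Its log2 fold change of 0.22 ± 0.08 with HFD was not called (0.0878).

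Fold changes of the subunits followed the GC content of their transcripts, as those of all genes did. Across the 80 members, Spearman's rho between the log2 fold change and GC content was -0.42 with HFD and -0.29 with age, beside -0.46 and -0.33 over 10365 genes. These are descriptions across genes that share the same libraries. The 24 members under 48% GC had a median of 0.17 with HFD, and the 15 members of at least 55% GC a median of -0.04, beside 0.10 and -0.17 for all genes in those ranges. Of the 6 calls with HFD, those of Atp5pb, Uqcrb, Ndufc1 and Ndufs7 were lost when each library's GC trend was subtracted. Of the 4 with age, those of Cyc1 and Atp5g2 were lost, and those of Ndufa6 and Cox7a2l held. Calls were also gained, for Ndufa4l2 with HFD (0.55, limma adjusted p = 0.0198) and for Ndufs5 with age (-0.34, 0.0447). The call on Ndufa6 in aged against HFD was lost (0.0703). After the correction, rho across the members was 0.21 with HFD, 0.03 with age and -0.30 in aged against HFD. Over all genes it was -0.01, -0.04 and -0.02. The corrected values of the members are thus not free of a GC trend with HFD or in aged against HFD.

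**Figure D5:**
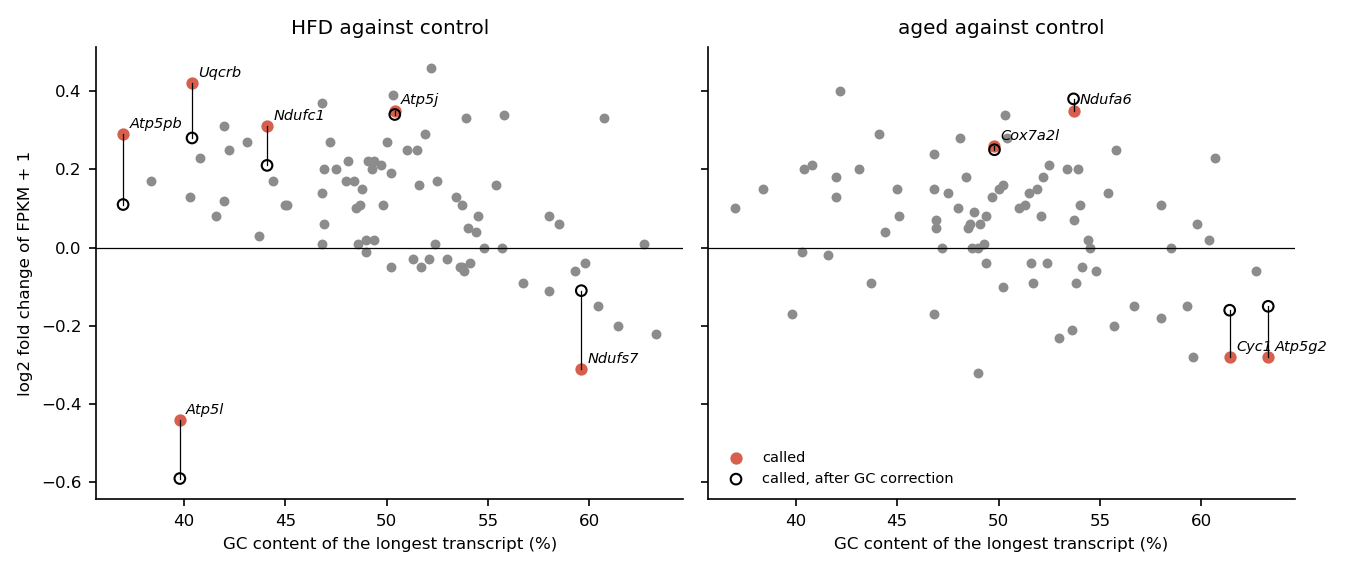
Log2 fold change of the 80 subunits against the GC content (%) of their longest transcript, for HFD and for aged against control. Red points were called, and open circles give the same genes after GC correction. Ndufs7 moves from -0.31 to -0.11 and Atp5pb from 0.29 to 0.11, while Atp5j is at 0.35 before and 0.34 after the correction, and Ndufa6 at 0.35 before and 0.38 after it.

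The promoters of these genes are known to be bound by NRF1, by ETS factors such as GABP and by YY1. RefSeq windows of the 250 bases before the start on GRCm38.p6 were matched by symbol for 69 members (74 windows). Exact letters were searched on both strands. The NRF1 core CGCATGCG, which reads the same on both strands, was in 10.8% of member windows and 1.55% of all 32851 windows. A shifted form, GCATGCGC, which can overlap the first by all but 1 letter, was in 12.2% and 2.26%. It was added after the Ndufa6 sequence had been read. The ETS core CCGGAAG was in 16.2% and 6.91%, and the YY1 core AAGATGGC in 1.35% and 1.56%. Any of these, the shifted form included, was in 25.7% of member windows and 10.3% of all. Of the 10 called members 8 had a window, and Ndufa6, Atp5j, Atp5l and Atp5g2 held a match. Over the 69 members with a window, 19 held a match. Ndufa6 matched only the shifted form, so its match was fixed when that form was added. The windows of Ndufa6, which rose with age, of Atp5j, which rose with HFD and matched 3 motifs, and of Atp5g2, which fell with age, are shown 5′ to 3′ with the matches in capitals. They lie on the minus strand at chr15:82354292-82354541, chr16:84834977-84835226 and chr15:102671048-102671297.
Ndufa6: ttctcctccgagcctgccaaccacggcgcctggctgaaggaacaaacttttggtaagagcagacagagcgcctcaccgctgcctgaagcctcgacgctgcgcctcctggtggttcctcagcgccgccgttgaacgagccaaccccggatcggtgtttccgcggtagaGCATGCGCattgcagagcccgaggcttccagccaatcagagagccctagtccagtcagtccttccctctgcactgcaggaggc
Atp5j: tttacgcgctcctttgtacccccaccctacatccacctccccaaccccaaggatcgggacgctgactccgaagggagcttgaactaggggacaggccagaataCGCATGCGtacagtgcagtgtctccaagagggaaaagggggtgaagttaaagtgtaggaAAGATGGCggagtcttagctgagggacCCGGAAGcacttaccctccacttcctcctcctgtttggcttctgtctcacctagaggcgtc
Atp5g2: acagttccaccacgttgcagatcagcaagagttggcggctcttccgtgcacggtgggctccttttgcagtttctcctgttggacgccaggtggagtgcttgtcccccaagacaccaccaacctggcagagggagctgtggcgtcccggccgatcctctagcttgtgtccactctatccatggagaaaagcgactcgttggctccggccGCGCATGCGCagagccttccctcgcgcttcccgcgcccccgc
In Ndufa6 the shifted NRF1 core begins at -83 from the start. In Atp5j, whose other window held no match, the NRF1, YY1 and ETS cores begin at -147, -88 and -61. In Atp5g2 the NRF1 core begins at -41 and overlaps the shifted form on both strands. A match of letters is a description and not evidence of binding.

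Genes around the chain were counted in lists, to be read beside the 8.26% of all genes that rose and the 8.76% that fell with HFD, and the 4.01% and 3.74% that did so with age. Calls in these lists come from the first fit alone. Whether they hold under GC correction or the other alternatives was not examined. Of 13 mitochondrially encoded subunits, 7 were tested, and mt-Co2, mt-Nd3, mt-Atp6 and mt-Atp8 were listed at 0, so this list is uncertain. Only mt-Nd5, a proton-pumping core subunit of complex I, was called: it rose to 575, 601 and 603 FPKM in HFD, against 511, 445 and 405 FPKM in control libraries (log2 fold change 0.39 ± 0.09, limma adjusted p = 0.0137). Of 45 tested assembly factors 1 rose in both comparisons with control. Ndufaf3, needed to assemble complex I, had 8.51, 7.75 and 7.56 FPKM in aged, 9.55, 8.60 and 8.85 FPKM in HFD and 6.30, 5.62 and 6.23 FPKM in control libraries. Ndufaf3 rose by 0.34 ± 0.08 on the log2 scale with age (limma adjusted p = 0.026) and 0.50 ± 0.08 with HFD (0.00283), and neither group overlapped the control libraries they share. Of 10 tested subunits and regulators of another list, which also holds the member Atp5md, Cox20, a chaperone of complex IV assembly, was the only one called. It rose by 0.48 ± 0.12 with age (0.0305) and by 0.38 ± 0.12 with HFD (0.043).

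Of 22 tested regulators of mitochondrial biogenesis, 3 fell with HFD, beside 8.76% of all genes, and 1 of them fell with age too, beside 3.74%. None was called as higher. These were Clpp, a matrix protease subunit (-0.33 ± 0.06, limma adjusted p = 0.00638), Pprc1, a coactivator of the PGC family (-0.33 ± 0.08, 0.0157), and Lonp1, a matrix protease (-0.28 ± 0.09, 0.0473). Clpp was at 23.1, 22.8 and 23.0 FPKM in aged, 21.5, 21.9 and 21.6 FPKM in HFD and 29.1, 26.7 and 26.8 FPKM in control libraries, and its value with age was -0.25 ± 0.06 (0.0346). The list's median was -0.08 with HFD and -0.06 with age. Of 25 tested genes of the citric acid cycle and pyruvate entry, Pdha1, of pyruvate dehydrogenase (0.27 ± 0.07, 0.0277), and Cs, citrate synthase (0.20 ± 0.06, 0.0433), rose with HFD, and Pcx, pyruvate carboxylase, fell (-0.36 ± 0.10, 0.0318). Pdk1, the kinase that switches pyruvate dehydrogenase off, rose with age (0.39 ± 0.07, 0.00881). Of 9 tested carriers, Ucp2, an inner membrane carrier, rose with HFD to 51.7, 61.0 and 59.3 FPKM, against 38.9, 33.3 and 37.6 FPKM in control libraries (0.63 ± 0.09, 0.00213). Ucp2 fell in aged against HFD libraries, with 45.3, 41.4 and 49.1 FPKM in aged libraries (-0.33 ± 0.09, 0.0456). Vdac1, the outer membrane pore, rose with HFD as well (0.26 ± 0.07, 0.0255).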

How the data were processed

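RNA-seq of 9 libraries (3 aged, 3 HFD, 3 control) was used. The authors deposited 1 table of FPKM, with 22399 rows. The submitters' processing notes name mm10 and the tools STAR 2.6.0c, DESeq2 1.30.0, cutadapt and HTSeq 0.11.2, without saying which tool made the FPKM. Strand use in the counting is not given in the sources used here. The members, gene lists and tests were chosen with earlier results of these data known. GENCODE M21 on GRCm38 matched 22285 identifiers. FPKM times merged exon length gave whole reads for 97.5% to 98.2% of values up to 30 reads (tolerance 0.02).

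Genes averaging 1 FPKM or more were analysed as log2(FPKM + 1). R 4.3.3 and limma 3.58.1 were used (lmFit with a mean per group over 9 libraries, eBayes with a trend, 6 residual and 5.50 prior degrees of freedom, two-sided tests). Fold changes on this scale understate those of low genes. A call needed a p under 0.05 after Benjamini-Hochberg adjustment over 10367 genes. The code was tested on simulated data. Named members were those called, the 2 highest and the lowest per complex, the 3 largest rises and falls per comparison, isoform sets, core subunits, those next to the filter and up to 4 called genes per list. Tables were made with Python 3.11.15 and pandas 2.3.3. Alternatives were a pseudocount of 0.1, no filter, a minimum mean of 5 FPKM, quantile normalization, total FPKM scaling, a GC correction (loess, span 0.5, degree 1), a replicate block with and without it, a fit of just the 6 libraries of a pair, and fits that omit 1 library. The division by main transcript length was added after seeing the data. Sequences came from RefSeq (GRCm38.p6). Single-cell data of the series were not used here. A result on 1 gene is not reported here.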

Additional observations from a re-analysis of the deposited data

How the results depend on the processing

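The medians over the members moved by less than the spread between libraries (SD 0.067 on the log2 scale) under every alternative tried. That SD is about as large as the medians of 0.07 with age and -0.06 in aged against HFD, so it is a weak check. Moves from 0.11 to 0.06 with HFD (total FPKM or quantile normalization) and from -0.06 to 0.00 in aged against HFD (without aged replicate 3) lie within it. The SD pools all 3 groups, and the aged libraries, at 0.07, 0.07 and -0.10, widen it. HFD libraries were at 0.08, 0.08 and 0.01 and control libraries at -0.04, -0.11 and -0.02. The check is therefore weak for HFD against control too, and does not show that its median is stable. The counts of called members did not hold, and calls over all genes moved as well. Without control replicate 2, 3.71% of all genes rose and 3.51% fell with HFD, and 1.84% and 1.24% with age. In HFD against control, where 6 were called, there was 1 without the filter on low values, 3 with GC correction, 13 with the replicate block, 14 with only the 6 libraries compared, and 0 to 18 when 1 library was left out. In aged against control, where 4 were called, there were 9 with the replicate block, 1 with only the 6 libraries, and 1 to 17 when 1 library was left out. In aged against HFD, where 1 was called, there were 2 after quantile normalization and with the replicate block, 0 with GC correction (13 at an unadjusted p under 0.05, limma), 0 with only the 6 libraries (9 unadjusted), and 0 to 1 when 1 library was left out (4 to 10 unadjusted in the fits with 0). Over all genes 3.27% rose and 4.25% fell in that comparison with quantile normalization, and 3.26% and 4.91% with GC correction. Without aged replicate 3 the shares were 2.61% and 3.77%, beside 3.54% and 4.45% with all libraries. Atp5g2 in HFD against control, -0.22, reversed to 0.06 with GC correction, alone and with the replicate block. The cause was not tested in these cases. Over 11 called member results and their 197 alternatives, 88 lost the call, 109 kept it and 0 reversed. Over 12 results not called and 215 alternatives, 29 gained a call and 2 reversed. The replicate numbers do not pair the libraries by the labels, and deviations of same-numbered libraries correlated at -0.05 to 0.27. Not every library correlated best with its own number, control replicate 1 reaching 0.18 with HFD replicate 2, so the paired fits share only a number. Depth limits Cox6b2 (37 to 85 reads), Atp5l (104 to 342), Ndufb4 (198 to 607) and the 6 untested isoforms most.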
